A study of Mus musculus with 32 samples.

Results

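A small set of tumor suppressor genes is recurrently lost in human mesothelioma, and the 9 mouse genes of that set followed here were Cdkn2a, Cdkn2b, Mtap, Bap1, Nf2, Trp53, Lats1, Lats2 and Setd2. They were taken from the counts table by their symbols, over all 32 tumors. A row was found for 7 of the 9 among the 39676 genes, and Cdkn2b and Lats1 were not analysed here. The tumors came from AB1 cells in BALB/c mice and from AE17 cells in C57BL/6 mice, both untreated murine mesothelioma lines put back into the strain they match. Each line was inoculated either into the pleural cavity (intrapleural, IPL) or under the skin of the flank (subcutaneous, SC), with 8 mice in each of the 4 groups. The inoculum was 500000 AB1 cells or 1000000 AE17 cells, the mice were females of 8 to 10 weeks, and RNA was taken from whole tumors on day 10. Each model is 1 cell line in 1 strain, so a difference between AB1 and AE17 tumors cannot be told apart from one between strains or inocula. Sequencing lanes were confounded with the lines only in part, since lane 2 held 6 AB1 SC and 5 AE17 IPL tumors, and the line differences were also fitted with the lane as a covariate.

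The genes act in a few connected circuits. Cdkn2a makes 2 unrelated proteins from alternative first exons: p16Ink4a, which inhibits Cdk4 and Cdk6 and so keeps the retinoblastoma protein active, and p19Arf, which binds Mdm2 and protects p53 from it. Cdkn2b lies beside it and makes a second inhibitor of the same kinases. Mtap, the adjacent enzyme that salvages methionine from polyamine synthesis, is often lost with CDKN2A in human tumors, and its loss is known to sensitize cells to inhibition of Prmt5 and Mat2a. Nf2 makes merlin, a membrane scaffold that switches on the Hippo kinases, of which Lats1 and Lats2 hold the coactivators Yap and Taz out of the nucleus. Bap1 removes ubiquitin from histone H2A, against the action of Polycomb repressors. Setd2 is the enzyme that trimethylates lysine 36 of histone H3, and Trp53 is p53 itself.

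Since the reads are 50 bases long and were counted per gene, a read from the shared part of Cdkn2a cannot be given to either protein. The gene (ENSMUSG00000044303) lies on the minus strand at chr4:89274471-89294653 in GRCm38, in the GENCODE M21 annotation. The exon 1 of p16Ink4a, transcript Cdkn2a-201, is at chr4:89281986-89282192 and that of p19Arf, transcript Cdkn2a-202, at chr4:89294334-89294653, and both are spliced to exon 2 at chr4:89276645-89276985. Of the 1172 exonic bases of the gene, 575 (49.1%) belong to both transcripts. The coding sequence across each splice junction is shown to make this plain, with the last bases of exon 1 in lower case and the first bases of the shared exon 2 in capitals.
Cdkn2a-201 (p16Ink4a): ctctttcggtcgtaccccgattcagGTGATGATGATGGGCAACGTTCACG
Cdkn2a-202 (p19Arf): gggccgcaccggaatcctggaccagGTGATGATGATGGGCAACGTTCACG
The capitals are identical, and only the lower-case parts tell the transcripts apart. Every Cdkn2a value below is therefore the sum of both.

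The libraries held between 15432258 and 20649645 counts on genes, so that a floor of 3 counts was equal to 0.145 to 0.194 CPM (counts scaled to the size of the library). Levels are given as CPM after scaling by TMM factors, with the SD over 8 mice. Differences are log2 fold changes with their standard error from edgeR's quasi-likelihood test, adjusted by the Benjamini-Hochberg method over all genes tested in that comparison, and a gene was called at an adjusted p under 0.05. Nothing states that the mice of a group were inoculated on separate days, and p-values measure the spread among these mice. Since whole tumors were sequenced, tumor cells and host cells both contribute, and fewer cells of a type cannot be told apart from less RNA per cell. Mesothelial markers were weak or uneven, and 11 of 15 listed genes had a row. Pdpn averaged 86.5 to 169 CPM over the groups. Wt1 averaged 1.27 in AB1 SC, 1.91 in AB1 IPL, 0.103 in AE17 SC and 1.76 CPM in AE17 IPL tumors. The 11 genes summed to medians of 88.5, 93.4, 178 and 195 CPM in the same order of groups. Of those tested between the lines, 2 of 2 in SC and 2 of 8 in IPL tumors were higher in AE17, and 0 were lower.

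Per kilobase of exon, Trp53 was the highest of the 7 genes in every group and Cdkn2a the lowest. In AB1 SC tumors the order of the mean levels in CPM per kilobase was Trp53 43.0, Nf2 20.5, Bap1 16.5, Setd2 11.3, Lats2 6.92, Mtap 2.63 and Cdkn2a 0.257, with no overlap between neighbors over the 8 mice. In AE17 SC tumors Mtap stood second, at 33.0 CPM per kilobase, with a range that overlapped that of Trp53 at 41.7, and Bap1 at 17.8 overlapped Nf2 at 16. Among IPL tumors the ranges of Nf2 and Bap1 and of Setd2 and Lats2 overlapped in AB1, and those of Setd2 and Lats2 in AE17. Mtap was thus next to last in AB1 tumors of both sites and next to the top in AE17 tumors of both sites. Lats2 shares 2955 of its 6971 exonic bases with a predicted gene, as described below. How reads there were counted is not given, so the place of Lats2 in these orders is uncertain.

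**Figure D1:**
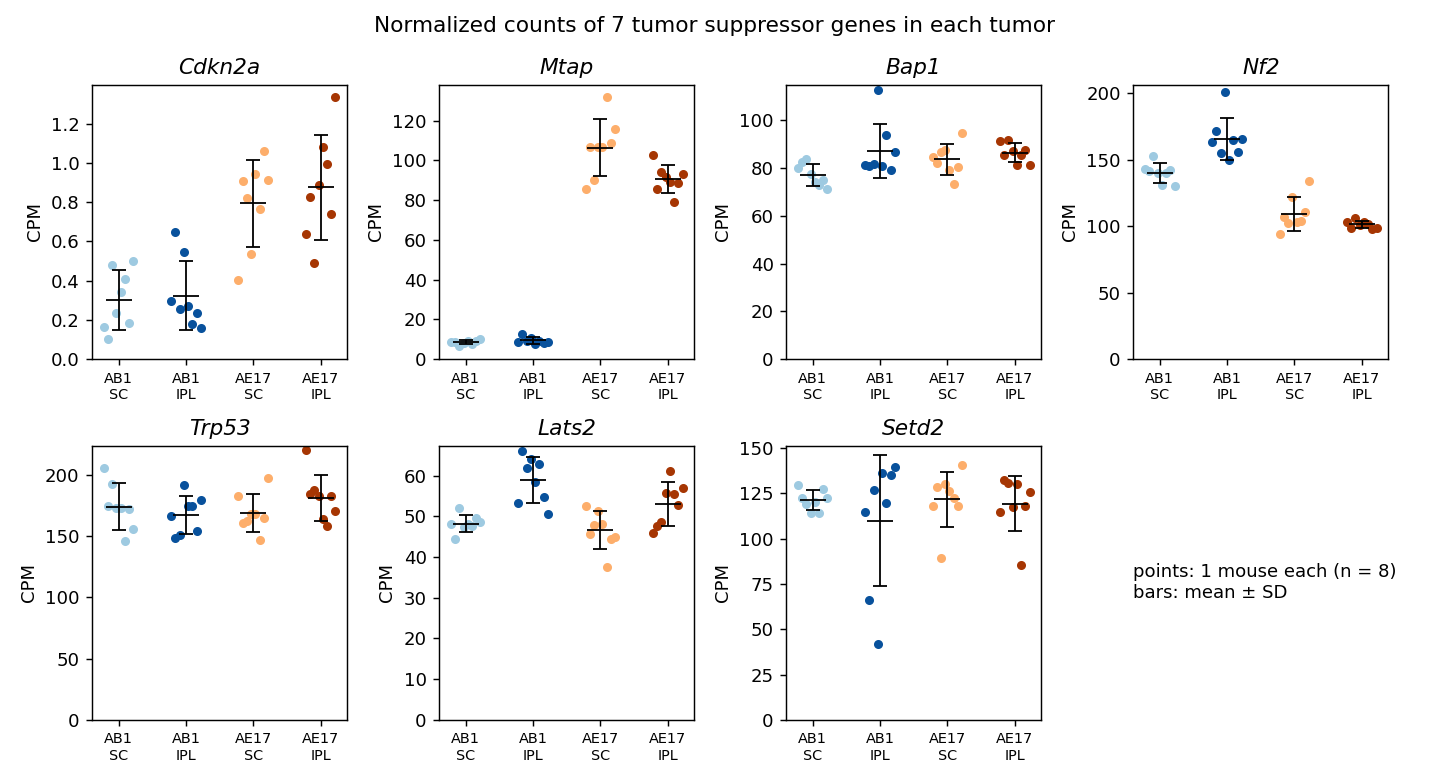
Normalized counts (CPM, linear axes from 0) of the 7 genes in each of the 4 groups, with 1 point per mouse and the mean ± SD of 8 mice as bars. Mtap separates the lines completely, between 6.75 and 12.8 CPM in AB1 and between 79.1 and 131.7 CPM in AE17 tumors, Nf2 is highest in AB1 IPL tumors, and Setd2 has a few low tumors in 3 groups.

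Mtap (ENSMUSG00000062937, chr4:89137122-89181081, plus strand, 3226 exonic bases) showed the largest difference of the set. In AB1 SC tumors its lowest, median and highest levels were 6.75, 8.45 and 10.1 CPM, and in AE17 SC tumors they were 85.4, 106.6 and 131.7 CPM. The IPL tumors gave 7.66, 8.96 and 12.8 CPM for AB1 and 79.1, 90.2 and 102.9 CPM for AE17. No AB1 tumor reached the lowest AE17 tumor at either site. Groups that do not overlap were common between the lines, at 31.2% of 14718 tested genes in SC and 28.4% of 14886 in IPL tumors. The fitted difference was a log2 fold change of 3.67 ± 0.10 in SC (edgeR adjusted p = 3.9e-15) and 3.29 ± 0.10 in IPL tumors (edgeR adjusted p = 3.9e-14). Only 2.96% of the genes tested in SC and 3.52% of those tested in IPL tumors differed by more in size. AB1 tumors nevertheless held 113 to 238 Mtap counts per mouse, well above the floor of 3, and the mean AB1 level was 7.97% of the AE17 level in SC and 10.3% in IPL tumors.

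Between sites Mtap did not pass the test in either line. The AB1 difference was 0.11 ± 0.11 (edgeR adjusted p = 0.507), and it turned to -0.02 without AB1 IPL mice 2 and 4, which stand apart as described with Setd2. In AE17 it was -0.22 ± 0.08 (edgeR adjusted p = 0.0842), with no IPL tumor above the SC median, and it passed the test when SC mouse 1 (edgeR adjusted p = 0.0226) or SC mouse 3 (0.0410) was left out.

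Cdkn2a was close to the detection floor. Counts per mouse ran from 2 to 8 in AB1 SC, from 3 to 12 in AB1 IPL, from 7 to 18 in AE17 SC and from 8 to 24 in AE17 IPL tumors. In CPM the lowest, median and highest levels were 0.101, 0.288 and 0.500 in AB1 SC, and 0.158, 0.263 and 0.646 in AB1 IPL tumors. Those of AE17 were 0.404, 0.867 and 1.06 in SC, and 0.490, 0.857 and 1.34 in IPL tumors. The ranges of the lines overlapped at each site, though 7 of 8 SC and 6 of 8 IPL AE17 tumors lay above every AB1 tumor of their site. In the IPL comparison the log2 fold change of AE17 against AB1 was 1.44 ± 0.29 (edgeR adjusted p = 0.000361). The filter on low counts left Cdkn2a out of the SC comparison, where a fit without it gave 1.40 ± 0.30 (edgeR adjusted p = 0.000597) and an exact two-sided permutation test of the mean CPM over 8 against 8 mice gave p = 0.000777. Where the gene passed that filter it did so through the AE17 tumors, in which it was higher.

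Lanes of sequencing were spread unevenly over the groups. All 8 AB1 IPL tumors ran in lane 3, and no lane held AB1 and AE17 tumors of the same site. Within AB1 SC tumors Cdkn2a averaged 0.131 CPM in the 2 mice of lane 3, which held 2 and 3 counts and so were at or under the floor, and 0.357 ± 0.130 CPM in the 6 mice of lane 2. The 8 AB1 IPL tumors of lane 3 averaged 0.323 ± 0.176 CPM. In lane 2, which held both lines, the 5 AE17 IPL tumors averaged 0.785 ± 0.228 CPM of Cdkn2a, from 0.490 to 1.08 CPM, and the 6 AB1 SC tumors ran from 0.182 to 0.500 CPM, so that the ranges met at their ends. Mtap averaged 8.48 ± 1.27 CPM in the same 6 AB1 SC tumors and 92.7 ± 6.52 CPM in the same 5 AE17 IPL tumors. A fit with the lane as a covariate, in which lanes 2 and 3 are compared through those AB1 SC tumors alone, gave a line difference of Cdkn2a of -0.13 ± 0.55 in IPL tumors (edgeR adjusted p = 0.899) and of 0.76 ± 0.46 in SC tumors (edgeR adjusted p = 0.212, no filter on low counts), neither of which was called. The corresponding values of Mtap, 3.31 ± 0.18 and 3.74 ± 0.18, stayed called (edgeR adjusted p = 3.6e-14 and 2.4e-15). Between sites Cdkn2a differed by 0.15 ± 0.22 in AE17 (edgeR adjusted p = 0.715) and by 0.10 ± 0.37 in AB1 with no filter (edgeR adjusted p = 0.900), which the lane took to 1.26 ± 0.55 (edgeR adjusted p = 0.210).

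The chromosome around Cdkn2a and Mtap was next read gene by gene. Of 55 annotated genes with a row whose span came within 1 Mb of Cdkn2a, 12 had at least 10 counts in some tumor, Mtap included. Klhl9, a substrate adaptor for ubiquitin ligases, averaged 46.1 ± 3.68 CPM in AB1 SC and 119.3 ± 11.3 CPM in AE17 SC tumors, a log2 fold change of 1.40 ± 0.07 (edgeR adjusted p = 5.0e-12). Its IPL difference was 1.53 ± 0.12 (edgeR adjusted p = 9.8e-09). The long noncoding gene Gm12603, which lies between Klhl9 and Mtap, held 0 to 9 counts in AB1 tumors against 171 to 284 in AE17 tumors. Gm12603 passed the filter on low counts through the AE17 tumors, in which it was higher, and is among the higher neighbors counted below. Gm12602, the noncoding gene next to Gm12603, was higher in AE17 SC tumors by 1.03 ± 0.20 (edgeR adjusted p = 0.000245) and differed by 0.38 ± 0.21 in IPL tumors (edgeR adjusted p = 0.132). The pseudogene Tgif2-ps1, between Mtap and Cdkn2a, differed by 0.44 ± 0.25 in SC and 0.42 ± 0.23 in IPL tumors and did not pass (edgeR adjusted p = 0.131 and 0.122).

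On either side of Cdkn2a, 3 further noncoding genes followed the same order at much lower counts. Gm12610 held 0 or 1 count in each AB1 tumor and 6 to 23 in each AE17 tumor, and Gm12609 held 0 or 1 against 5 to 16. Gm12606 was at 0 in all 8 AB1 IPL tumors, at 0 to 5 counts in AB1 SC and at 3 to 21 in AE17 tumors. Dmrta1, a transcription factor gene on the far side, went the opposite way, at 37 to 64 counts in AB1 SC tumors (2.80 ± 0.50 CPM) and 0 to 6 counts in AE17 SC tumors (0.148 ± 0.128 CPM, at the floor), so that it passed the filter on low counts through the AB1 tumors. Dmrta1 was called lower in AE17 SC tumors (edgeR adjusted p = 3.8e-09), but not with the lane as a covariate (edgeR adjusted p = 0.658). The pseudogene Mrpl48-ps was also lower in AE17, at -1.26 ± 0.12 in SC tumors (edgeR adjusted p = 6.5e-08). Focad, itself a candidate tumor suppressor, was higher in AE17 SC tumors by 0.42 ± 0.05 (edgeR adjusted p = 2.4e-06) and differed by 0.09 ± 0.08 in IPL tumors (edgeR adjusted p = 0.297), and Hacd4 differed by 0.02 ± 0.10 and 0.24 ± 0.15, neither of which passed. Among the neighbors tested, Mtap included, 5 of 9 were higher and 2 lower in AE17 SC tumors, and 3 of 9 were higher and 2 lower in AE17 IPL tumors, where 63.7% and 59.1% of all genes tested were called in either direction.

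**Figure D2:**
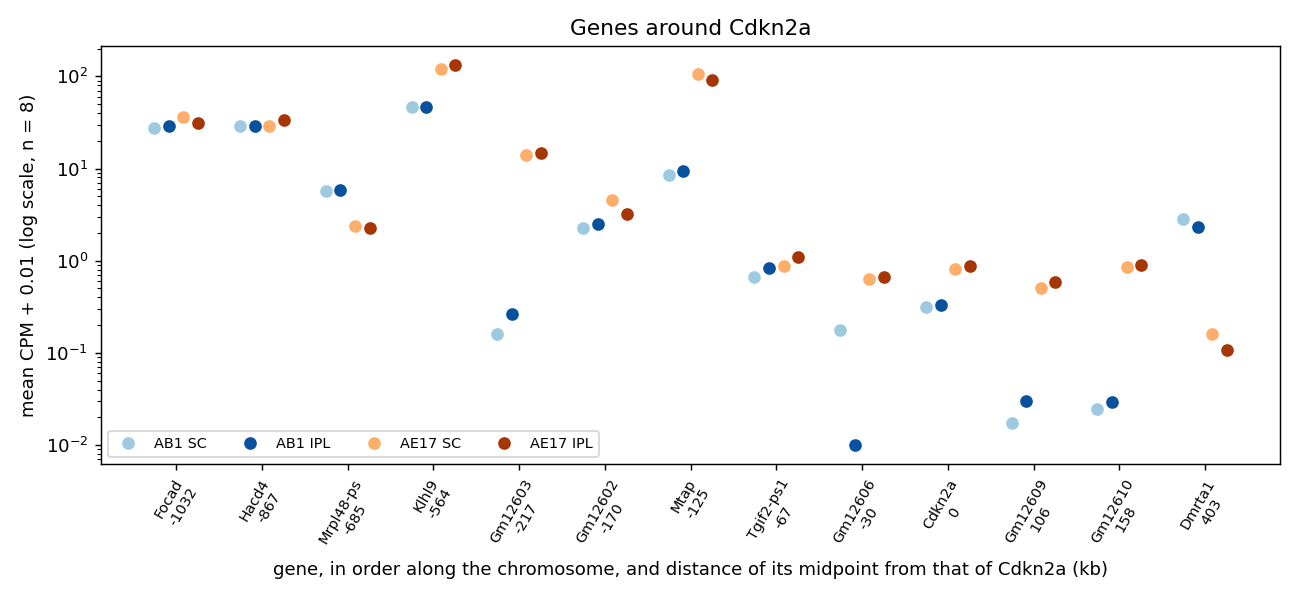
Mean CPM plus 0.01 (log axis, n = 8 mice) of Cdkn2a and the 12 neighbors with at least 10 counts in some tumor, placed in chromosomal order with the distance of each midpoint from that of Cdkn2a in kb. From Gm12603 to Gm12610 the AE17 points lie above the AB1 points, whereas Dmrta1 and Mrpl48-ps are lower in AE17 and Hacd4 averages between 28.6 and 33.5 CPM in all 4 groups.

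Read against the whole transcriptome, calls between the lines were the rule. In SC tumors 63.7% of tested genes were called, and 3 of the 6 members tested were called, Mtap and Bap1 higher and Nf2 lower in AE17. In IPL tumors 59.1% were called, and 3 of 7 members were, Mtap and Cdkn2a higher and Nf2 lower in AE17. Cdkn2a entered the IPL count through the AE17 tumors, in which it was higher, and the lane took its difference to -0.13 (edgeR adjusted p = 0.899). DESeq2 called 4 members in SC tumors, with Cdkn2a as the fourth, and 3 in IPL tumors. In AE17 against AB1 IPL tumors 12 of 14 leukocyte markers were higher and 1 lower, with a median of 0.66, and 8 of 10 skeletal muscle markers were lower. With the lane as a covariate 2 of these 13 leukocyte calls and 0 of the 8 muscle calls remained. In SC tumors 0 of the 14 leukocyte markers were higher and 2 lower, and 2 of the 10 muscle markers were higher. Of 9 endothelial markers 8 were higher in AE17 SC and 3 in AE17 IPL tumors, and of 8 fibroblast markers 5 were higher and 2 lower in SC and 1 higher and 4 lower in IPL tumors. With the leukocyte score as a covariate the IPL differences of Mtap (3.24), Cdkn2a (1.10) and Nf2 (-0.71) stayed called (edgeR adjusted p of at most 0.000247). The median log2 fold change of the members tested was 0.0042 in SC and 0.13 in IPL tumors, against 0.0027 and -0.016 for all genes tested.

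Nf2 (ENSMUSG00000009073, chr11:4765845-4849536, minus strand) was the only member called in more than 2 of the comparisons. AB1 SC tumors spanned 129.9 to 152.8 CPM around a median of 140.7, and AB1 IPL tumors spanned 149.8 to 200.8 CPM around 163.9. AE17 SC tumors spanned 93.9 to 133.6 CPM around 105.1, and AE17 IPL tumors 97.6 to 106.2 CPM around 101.2. All 8 AB1 IPL tumors lay above all 16 AE17 tumors, and 7 of 8 AB1 IPL tumors lay above every AB1 SC tumor. Groups did not overlap between the lines for 28.4% of all genes tested in IPL tumors. Levels of Nf2 in AE17 were lower by -0.33 ± 0.06 in SC (edgeR adjusted p = 9.9e-05) and by -0.70 ± 0.06 in IPL tumors (edgeR adjusted p = 1.6e-08). With lane as a covariate these were -0.30 ± 0.11 (edgeR adjusted p = 0.0304) and -0.65 ± 0.12 (edgeR adjusted p = 9.3e-05), and with tissue marker scores as covariates the SC call was lost (-0.28 ± 0.13, edgeR adjusted p = 0.112).

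Within AB1, Nf2 was higher in IPL tumors by 0.21 ± 0.06 (edgeR adjusted p = 0.0131). AE17 gave -0.10 ± 0.06, which did not pass (edgeR adjusted p = 0.295). The interaction of line and site, which tests the difference of these site effects over all 32 mice, was -0.33 ± 0.08 (edgeR adjusted p = 0.00401), and Nf2 was the 1 member of 7 called in it, where 20.5% of 15681 genes were called. Of 14 leukocyte markers 10 were higher and 1 lower in the same interaction, as 9 of 10 skeletal muscle markers and 7 of 8 fibroblast markers were lower. The call of Nf2 was lost with the leukocyte score (-0.24, edgeR adjusted p = 0.0595), with the tissue scores (-0.33, edgeR adjusted p = 0.0740) or with the lane (-0.35, edgeR adjusted p = 0.136) as a covariate. Mtap came next at -0.35 ± 0.13 (edgeR adjusted p = 0.0521), and it was called there under 4 of the other settings and when any 1 of 8 single mice was left out.

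**Figure D3:**
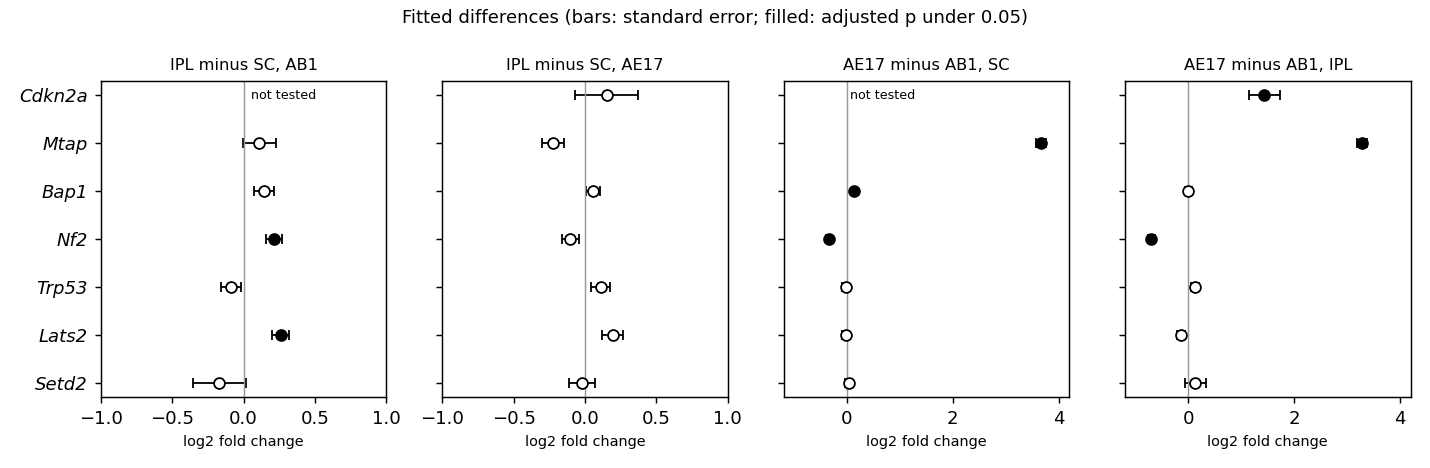
Fitted log2 fold changes of the 7 genes with their standard errors in the 4 comparisons, filled where the edgeR adjusted p was under 0.05. The horizontal axes of the site and the line comparisons differ in range. Mtap stands at 3.67 and 3.29 between the lines, whereas no site difference exceeds 0.26 in size.

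Lats2 (ENSMUSG00000021959, chr14:57689662-57758388, minus strand) was the other member called between sites. In AB1 its lowest, median and highest levels were 44.5, 48.0 and 52.1 CPM in SC and 50.7, 60.2 and 66.0 CPM in IPL tumors. In AE17 they were 37.6, 46.8 and 52.7 CPM in SC and 45.9, 54.3 and 61.3 CPM in IPL tumors. IPL tumors tended to the higher end in both lines, with 7 of 8 above every SC tumor in AB1 and 5 of 8 in AE17, and the groups overlapped. The difference was 0.26 ± 0.06 in AB1 (edgeR adjusted p = 0.00497) and 0.20 ± 0.07 in AE17, which did not pass (edgeR adjusted p = 0.113). The interaction of Lats2 was -0.08 ± 0.09 (edgeR adjusted p = 0.580), and with the leukocyte score as a covariate it was -0.25 ± 0.09 (edgeR adjusted p = 0.0609), neither of which passed. Between the lines Lats2 differed by -0.03 ± 0.06 in SC (edgeR adjusted p = 0.718) and by -0.14 ± 0.08 in IPL tumors (edgeR adjusted p = 0.130). The IPL difference was called as lower in AE17 with the leukocyte score (-0.23, edgeR adjusted p = 0.00396) and with total counts in place of TMM factors (-0.18, edgeR adjusted p = 0.0430). With the lane the line differences of Lats2 were -0.16 ± 0.12 in SC and -0.26 ± 0.13 in IPL tumors (edgeR adjusted p = 0.344 and 0.150). Part of the exonic sequence of Lats2, 2955 bases, is shared in the annotation with a predicted gene on the same strand, Gm49361, and the setting by which the counting tool, summarizeOverlaps, treats reads of overlapping genes is not given in the sources used here.

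Across the AB1 site comparison 23% of 14645 tested genes were called, and 2 of 6 members were, Nf2 and Lats2, both higher in IPL tumors. The median over the 6 members was 0.13 against -0.0023 for all genes. Groups that did not overlap made up 5.00% of tested genes, and no member was among them. In AE17, 5.73% of 14668 genes were called and 0 of the 7 members by edgeR, which gave 2 of them, Mtap and Lats2, an unadjusted p under 0.05. The number of genes called in AE17, 840, ran from 316 without IPL mouse 4 to 2066 without SC mouse 1 when single mice were left out. DESeq2 called 0 members among 1774 genes. With sample quality weights, as it was used throughout, limma-voom called 3 members, Mtap, Trp53 and Lats2, among 3959 genes. Non-overlap there was found for 0.573% of genes and for no member.

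Marker genes of several cell types were also called between AB1 sites. Of 14 leukocyte markers tested, 10 were lower and 2 higher in AB1 IPL than in AB1 SC tumors, and their summed level spanned 1688 to 2599 CPM in SC and 1121 to 1928 CPM in IPL tumors. Skeletal muscle markers, 9 of 10 of which were higher, summed to 55.1 to 482 CPM in SC and 119 to 5148 CPM in IPL tumors. Fibroblast markers, 6 of 8 higher, summed to 463 to 715 CPM in SC and 592 to 1683 CPM in IPL tumors. With the lane as a covariate 1 of the 12 leukocyte calls, 0 of the 9 muscle calls and 0 of the 6 fibroblast calls remained. No defining marker of these lists was at 0 in a whole group. With scores for muscle, heart, fat and lung markers as covariates the AB1 site differences were 0.17 ± 0.10 for Nf2 (edgeR adjusted p = 0.411) and 0.29 ± 0.11 for Lats2 (edgeR adjusted p = 0.179), and with the leukocyte score they were 0.22 ± 0.07 (edgeR adjusted p = 0.0342) and 0.35 ± 0.06 (edgeR adjusted p = 0.00113). The lane took them to 0.22 ± 0.09 (edgeR adjusted p = 0.197) and 0.35 ± 0.11 (edgeR adjusted p = 0.0638). What share of either gene's RNA came from host cells was not tested.

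Setd2 (ENSMUSG00000044791, chr9:110532597-110618633, plus strand) passed no test by any tool or setting tried, and its spread differed between the groups. AB1 SC tumors kept to 113.9 to 129.7 CPM around a median of 121.4. AB1 IPL tumors spanned 42.0 to 139.9 CPM around 123.1, with a coefficient of variation of 32.9% against 4.65% in AB1 SC tumors. AE17 tumors spanned 89.4 to 140.7 CPM in SC and 85.4 to 132.2 CPM in IPL, with 1 low tumor each. The low values belonged to AB1 IPL mice 4 (42.0 CPM) and 2 (66.0 CPM), AE17 IPL mouse 6 (85.4 CPM) and AE17 SC mouse 3 (89.4 CPM).

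The transcript of Setd2 is long, with 10754 exonic bases, and these 4 tumors were low in long transcripts as a class. For each tumor the median deviation from its group median was taken over the 3057 protein-coding genes of at least 6745 exonic bases and over the 3060 of at most 2750, and the second was subtracted from the first. The result was -0.46 log2 units in AB1 IPL mouse 4, -0.23 in AB1 IPL mouse 2, -0.16 in AE17 IPL mouse 6 and -0.09 in AE17 SC mouse 3, and between -0.06 and 0.09 in the other 28 tumors. The order of the 4 tumors was the same for Setd2 and for long genes. Without AB1 IPL mice 2 and 4 the AB1 site difference of Setd2 went from -0.17 ± 0.19 to 0.05 ± 0.05 (edgeR adjusted p = 0.544 and 0.507), and the calls of Nf2 (0.15 ± 0.04, edgeR adjusted p = 0.0167) and Lats2 (0.21 ± 0.06, edgeR adjusted p = 0.0156) remained. The part of RNA length or quality in the Setd2 values was not tested.

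**Figure D4:**
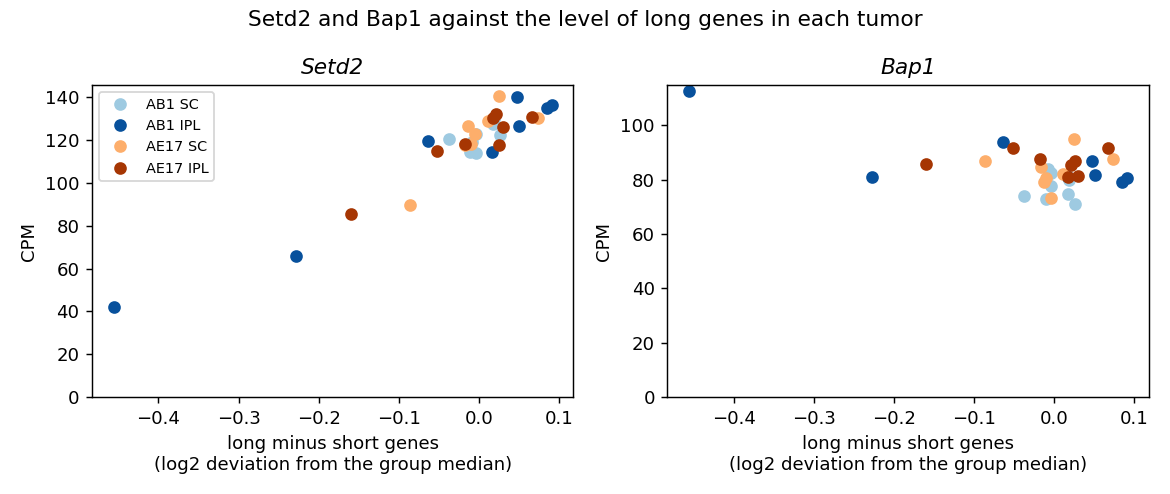
Level of Setd2 and Bap1 (CPM, axes from 0) against the contrast of long and short genes (log2 units) in each of the 32 tumors, colored by group. The 4 tumors with the lowest contrast are the 4 with the lowest Setd2, from 42.0 to 89.4 CPM, and the tumor at -0.46 has the highest Bap1, 112.7 CPM.

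Bap1 and Trp53 differed little. For Bap1 (ENSMUSG00000021901, chr14:31251450-31259944, plus strand) the group means were 77.1 ± 4.7 CPM in AB1 SC, 87.1 ± 11.4 in AB1 IPL, 83.6 ± 6.5 in AE17 SC and 86.4 ± 4.0 in AE17 IPL tumors. All tumors lay between 71.0 and 112.7 CPM, and the highest was AB1 IPL mouse 4, the tumor with the lowest Setd2. Bap1 was higher in AE17 SC than AB1 SC tumors by 0.14 ± 0.05 (edgeR adjusted p = 0.0198). That call was lost without AE17 SC mouse 4 (edgeR adjusted p = 0.0509), with total counts in place of TMM factors (0.07, edgeR adjusted p = 0.232), with no filter (0.13, 0.0820) and with all 32 mice in 1 fit (0.13, 0.0601). It was also lost with the lane (0.19, edgeR adjusted p = 0.192), the tissue scores (0.13, 0.470) or the leukocyte score (0.11, 0.130) as a covariate. The AB1 site difference was 0.15 ± 0.07 (edgeR adjusted p = 0.140), and the fit of all 32 mice called it as higher in IPL tumors (0.16, edgeR adjusted p = 0.0405). With single mice left out that difference ran from 0.06 to 0.18, and without AB1 IPL mice 2 and 4 it was 0.09 ± 0.05 (edgeR adjusted p = 0.221). The IPL line difference of Bap1 was 0.0021 ± 0.070 (edgeR adjusted p = 0.983).

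Trp53 (ENSMUSG00000059552, chr11:69580359-69591873, plus strand) was called in no comparison by edgeR. Its lowest and highest levels were 145.7 and 206.0 CPM in AB1 SC, 148.1 and 191.6 in AB1 IPL, 146.4 and 197.5 in AE17 SC, and 158.5 and 220.1 CPM in AE17 IPL tumors, with all 4 groups overlapping. Line differences were -0.02 ± 0.07 in SC and 0.13 ± 0.07 in IPL tumors, and site differences -0.09 ± 0.07 in AB1 and 0.11 ± 0.07 in AE17 (edgeR adjusted p between 0.134 and 0.799). The AE17 site difference was called by limma-voom (0.14, adjusted p = 0.0314), as was the interaction (0.22, adjusted p = 0.0259). The IPL line difference was called by limma-voom (0.15, adjusted p = 0.0196), with lane as a covariate (0.35, edgeR adjusted p = 0.0460) and without AB1 IPL mouse 4 (0.16, edgeR adjusted p = 0.0499). Counts do not show mutations, so the state of the protein is not known from these values.

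The other genes of these circuits were read from lists by role, in which between 52.6% and 89.7% of genes were called between SC tumors and between 36.8% and 80% between IPL tumors, against 63.7% and 59.1% of all genes tested. Of the 178 pathway genes tested between SC tumors 132 were called, and 65 with the lane as a covariate. Between IPL tumors 114 of 179 were called, and 68 with the lane, and no called gene of these lists turned its direction. Among the line differences printed for single pathway genes below, the lane ended the calls of Mdm2, Prmt5 and Kdm1b at both sites, of Cdkn1a, Mat2a, Amd1 and Srm in SC and of Rb1 in IPL tumors (edgeR adjusted p of at least 0.0536 each). The differences with the lane, in SC and IPL tumors, were 0.15 ± 0.18 and 0.47 ± 0.19 for Mdm2, 0.31 ± 0.14 and 0.30 ± 0.15 for Prmt5, and -0.34 ± 0.22 and -0.34 ± 0.24 for Kdm1b. They were 0.35 ± 0.21 for Cdkn1a, -0.084 ± 0.14 for Mat2a, 0.48 ± 0.19 for Amd1 and -0.33 ± 0.23 for Srm in SC, and -0.63 ± 0.30 for Rb1 in IPL tumors. Between sites 39 of 177 pathway genes were called in AB1, of which 6 stayed called with the lane and 1 with the tissue scores, where 1 turned its direction. In AE17 14 of 179 were called between sites, and 0 of them with the lane or with the tissue scores, though each kept its direction. Of 11 p53 regulators, 5 were higher and 4 lower in AE17 SC than AB1 SC tumors, and 5 were higher and 1 lower in IPL tumors, with medians of 0.16 and 0.30. Mdm2, the ligase that degrades p53, averaged 102 ± 7.28 CPM in AB1 SC, 93.9 ± 18.8 in AB1 IPL, 112 ± 10.4 in AE17 SC and 129 ± 9.57 in AE17 IPL tumors. It was higher in AE17 by 0.16 ± 0.06 in SC (edgeR adjusted p = 0.0271) and by 0.48 ± 0.11 in IPL tumors (edgeR adjusted p = 0.0013). Trp53bp1, a partner of p53 in the DNA damage response, was higher in AE17 by 0.80 in SC and 0.68 in IPL tumors (edgeR adjusted p = 1.9e-10 and 3.5e-06).

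Among 23 p53 target genes tested, 7 were higher and 10 lower in AE17 SC tumors, and 7 higher and 8 lower in AE17 IPL tumors, with medians of -0.16 and -0.08. Cdkn1a, which encodes the cell cycle inhibitor p21, was higher in AE17 by 0.56 ± 0.09 in SC (edgeR adjusted p = 2.0e-05) and by 0.88 ± 0.13 in IPL tumors (edgeR adjusted p = 1.9e-05). Sulf2 was higher in AE17 by 2.60 and 2.52, and Aen, an apoptosis nuclease, was lower by -1.48 and -1.36 (all with an edgeR adjusted p of at most 3.1e-07). Between sites in AE17, 4 of the 23 were higher and 2 lower in IPL tumors, against 5.73% of all genes called. Gdf15 (1.04, edgeR adjusted p = 0.0363), Sesn2 (0.40, 0.0237), Cdkn1a (0.32, 0.0455) and Mdm2 (0.22, 0.0472) were higher, and Sulf2 (-0.72, 0.0248) and Sesn1 (-0.36, 0.0456) were lower. None of these 6 stayed called with the lane or with the tissue scores. In AB1 this list gave 2 higher and 0 lower, Ak1 (0.69, edgeR adjusted p = 0.00134) and Xpc (0.31, edgeR adjusted p = 0.000917), both of which stayed called with the lane and neither with the tissue scores.

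Of the cyclin D, CDK4/6 and RB genes, which p16Ink4a acts on, 9 of 19 were higher and 8 lower in AE17 SC tumors, and 8 of 20 higher and 7 lower in AE17 IPL tumors, or 89.5% and 75% called against 63.7% and 59.1% of all genes. Cdk4, the kinase that p16Ink4a inhibits, averaged 437 ± 33.7 CPM in AB1 SC and 338 ± 30.3 CPM in AE17 SC tumors, a difference of -0.35 ± 0.06 (edgeR adjusted p = 3.9e-05). Rb1 was lower in AE17 by -0.86 ± 0.07 in SC (edgeR adjusted p = 2.8e-09) and by -0.47 ± 0.19 in IPL tumors (edgeR adjusted p = 0.041). Its relative Rbl1 was lower by -1.52 and -1.11, and Ccnd1, cyclin D1, by -1.05 and -1.35 (all with an edgeR adjusted p of at most 1.0e-05). Cdkn2c, another inhibitor of Cdk4 and Cdk6, was higher in AE17 by 1.07 ± 0.06 and 0.88 ± 0.11 (edgeR adjusted p = 3.2e-11 and 1.4e-06). In the AB1 site comparison 3 of 19 were lower and 0 higher in IPL tumors, namely Rbl1, Cdk6 and Ccnd2.

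Around Mtap, 15 methionine salvage and polyamine genes were tested. In AE17 SC tumors 6 were higher and 6 lower, and in AE17 IPL tumors 5 were higher and 6 lower, with medians of -0.05 and -0.15. Mri1, which acts in the step that follows Mtap, was higher in AE17 by 0.85 in SC and 0.53 in IPL tumors (edgeR adjusted p = 1.9e-09 and 0.000149). Got1 was higher by 1.04 and 1.5 (edgeR adjusted p = 9.2e-09 and 4.5e-11), and Amd1, which makes the aminopropyl donor of polyamine synthesis, by 0.57 and 0.76 (edgeR adjusted p = 7.3e-06 and 1.8e-05). Srm, spermidine synthase, was lower by -0.33 and -0.87 (edgeR adjusted p = 0.042 and 1.3e-06). Prmt5, a methyltransferase, was higher in AE17 by 0.37 ± 0.07 and 0.26 ± 0.08 (edgeR adjusted p = 0.000217 and 0.00757). Mat2a, which makes the methyl donor of the cell, was lower in AE17 SC tumors by -0.17 ± 0.06 (edgeR adjusted p = 0.0176) and differed by -0.11 ± 0.09 in IPL tumors (edgeR adjusted p = 0.288).

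Of 15 Polycomb repressor genes, 8 were lower and 3 higher in AE17 SC tumors and 8 lower and 2 higher in AE17 IPL tumors, with medians of -0.17 and -0.29. Ezh2, the methyltransferase of Polycomb complex 2, averaged 105 ± 9.58 CPM in AB1 SC and 56.1 ± 10.2 CPM in AE17 SC tumors (-0.88 ± 0.09, edgeR adjusted p = 2.4e-07), and its IPL difference was -0.79 ± 0.13 (edgeR adjusted p = 6.7e-05). Eed, of the same complex, was lower by -1.2 and -0.69, and Cbx2, of Polycomb complex 1, by -1.25 and -1.97 (all with an edgeR adjusted p of at most 1.9e-05). In AB1, 5 of the 15 (33.3%, against 23% of all genes) were higher in IPL tumors and 0 lower, 0 of them with the lane or the tissue scores, led by Cbx2 (0.56, edgeR adjusted p = 0.00109) and Cbx8 (0.54, edgeR adjusted p = 0.0115).

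Of 13 BAP1 partners 6 were higher and 2 lower in AE17 SC tumors, and 5 higher and 2 lower in AE17 IPL tumors. These were 61.5% and 53.8% of the list, against 63.7% and 59.1% of all genes tested. Asxl3, a cofactor of the deubiquitinase, averaged 0.0449 and 0.0778 CPM in AB1 SC and IPL tumors, below the detection floor, and 8.06 ± 4.28 and 2.84 ± 1.19 CPM in AE17 SC and IPL tumors. Between the lines Asxl3 thus passed the filter on low counts through the AE17 tumors, in which it was higher. It was also lower in IPL than in SC tumors of AE17 (-1.49 ± 0.37, edgeR adjusted p = 0.0324). Kdm1b, a histone demethylase, was lower in AE17 by -0.28 and -0.40 (edgeR adjusted p = 0.00158 and 0.0257).

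Of 29 genes of the Hippo kinase pathway tested, a list that holds neither Nf2 nor Lats2, 17 were higher and 9 lower in AE17 SC tumors (89.7% called, against 63.7% of all genes tested), and 13 higher and 7 lower in AE17 IPL tumors (69.0%, against 59.1%). Wtip, Fat4 and Wwc1, upstream regulators of Lats kinases, were higher in AE17 by 3.22, 3.11 and 1.95 in SC and by 3.14, 2.64 and 2.68 in IPL tumors (all with an edgeR adjusted p of at most 1.1e-09). Yap1 averaged 104 ± 8.35 CPM in AB1 SC, 119 ± 6.81 in AB1 IPL, 163 ± 16.2 in AE17 SC and 157 ± 6.52 CPM in AE17 IPL tumors. It was higher in AE17 by 0.67 ± 0.06 and 0.42 ± 0.05 (edgeR adjusted p = 3.7e-08 and 1.2e-06) and higher in AB1 IPL than AB1 SC tumors by 0.17 ± 0.05 (edgeR adjusted p = 0.0342).

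In the AB1 site comparison 10 of the 29 were higher and 4 lower in IPL tumors, where 23% of all genes were called in either direction. With the lane 1 of these 14 stayed called, Amotl1, and with the tissue scores 0 did. Dchs1 (0.76, edgeR adjusted p = 0.00205), Amotl2 (0.60, 0.0102), Tead2 (0.45, 0.00143) and Amotl1 (0.43, 9.1e-05) were among the higher genes, and Wwc1 (-0.48, 0.0448) and Stk38l (-0.34, 0.029) among the lower. In AE17 2 were higher, Wtip and Amotl1, and 1 lower, Stk38l. None of these AE17 calls stayed with the lane or the tissue scores. For Amotl1, an angiomotin that binds Yap, the site differences with the lane were 0.42 ± 0.08 in AB1 and 0.19 ± 0.07 in AE17 (edgeR adjusted p = 0.00486 and 0.179). For Stk38l they were -0.36 ± 0.15 and -0.27 ± 0.14 (edgeR adjusted p = 0.199 and 0.351).

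Genes that Yap and Taz switch on were called in both directions. Of 17 tested, Lats2 included, 7 were higher and 5 lower in AE17 SC tumors and 6 higher and 5 lower in AE17 IPL tumors. Tgfb2 was higher in AE17 by 5.93 ± 0.26 and 3.46 ± 0.23 (edgeR adjusted p = 3.1e-12 and 8.8e-10), whereas Ctgf, a standard readout of Yap activity, was lower by -1.68 ± 0.15 and -1.10 ± 0.25 (edgeR adjusted p = 3.2e-08 and 0.00111). In AB1 6 were higher and 2 lower in IPL tumors, led by Tgfb2 at 0.704 ± 0.171 CPM in SC and 3.04 ± 1.18 CPM in IPL tumors (2.07 ± 0.25, edgeR adjusted p = 3.9e-05), which stayed called with the lane (1.82 ± 0.44) and with the tissue scores (1.44 ± 0.26). Ctgf differed by 0.01 ± 0.14 there (edgeR adjusted p = 0.952).

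Of 10 merlin binding partners tested, 7 were higher and 1 lower in AE17 at each site, with medians of 0.40 in SC and 0.78 in IPL tumors, where Nf2 was lower. These were 80% of the list at each site, against 63.7% and 59.1% of all genes, and 40% between AB1 sites, against 23%. Ezr, the related linker ezrin, was higher in AE17 by 0.76 and 1.07, Cd44, a receptor that merlin binds, by 0.96 and 0.94, and Pak2, a kinase that phosphorylates merlin, by 0.64 and 0.90 (all with an edgeR adjusted p of at most 1.5e-06). Within AB1 4 of the 10 were lower in IPL tumors and 0 higher, namely Wwc1, Ezr (-0.40, edgeR adjusted p = 0.0078), Cd44 (-0.27, 0.0218) and Pak2 (-0.23, 0.0193), where Nf2 was higher. With the lane these AB1 differences were -0.47 for Ezr, -0.27 for Cd44 and -0.20 for Pak2, and with the tissue scores -0.067, -0.063 and -0.12, none of them called. Leukocytes express Cd44, Ezr and Pak2 too, and leukocyte markers were lower in AB1 IPL than AB1 SC tumors and higher in AE17 IPL than AB1 IPL tumors, the comparison with the median of 0.78. Between SC tumors of the lines, where the median was 0.40, 0 of 14 leukocyte markers were higher and 2 lower. The part of those cells in this pattern was not tested.

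**Figure D5:**
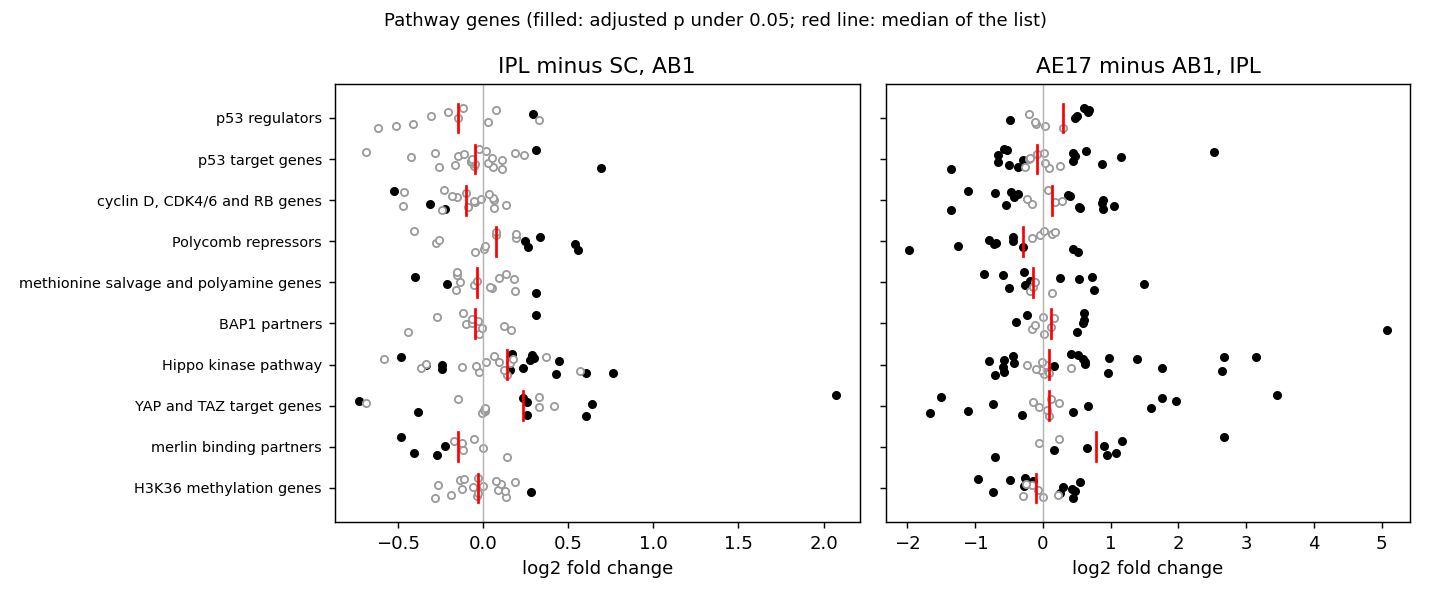
Fitted log2 fold changes of the pathway genes by list in AB1 IPL against AB1 SC tumors (left) and AE17 IPL against AB1 IPL tumors (right), with 1 point per gene, filled where the edgeR adjusted p was under 0.05, and the median of each list as a red line. Medians lie between -0.15 and 0.23 on the left, and merlin binding partners have a median of 0.78 on the right. The horizontal axes differ between the panels.

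For Setd2, 18 genes that write, read or erase methylation of lysine 36 of histone H3 were tested. The line comparisons gave 6 higher and 6 lower in AE17 at each site. Whsc1l1 (Nsd3), a dimethyltransferase, was lower by -1.14 and -0.95, and the demethylase Kdm4a was higher by 0.72 and 0.48 (all with an edgeR adjusted p of at most 8.6e-07). Between sites 1 of 18 was called in AB1, where 23% of all genes were, namely Kdm2b (0.28, edgeR adjusted p = 0.00269, not called with the lane or the tissue scores), and 0 in AE17, where 5.73% of all genes were. A further list of 19 genes recurrently altered in mesothelioma gave no site call by edgeR in either line, and 5 higher and 5 lower in AE17 SC and 2 higher and 5 lower in AE17 IPL tumors.

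The neighborhoods of the other members were examined in the same way, by counts only. Within 1 Mb of Trp53, 20 of 77 tested neighbors were higher and 27 lower in AE17 SC tumors, and 16 of 82 were higher and 34 lower in AE17 IPL tumors, with medians of -0.021 and -0.19. Near Nf2 19 of 43 were higher and 14 lower in SC tumors, and 13 of 42 and 11 in IPL tumors. The counts near Setd2 were 8 of 26 higher and 7 lower in SC, and 9 of 27 and 9 in IPL tumors. Near Bap1 they were 6 of 24 and 6 in SC, and 6 of 25 and 5 in IPL tumors, and near Lats2 1 of 8 was higher and 2 lower at each site. Of all genes tested, 63.7% in SC and 59.1% in IPL tumors were called in either direction.

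To see which genes varied like each member, log2 CPM was correlated over the 32 tumors, as a description in which points share a line, a site and a library. For Mtap the closest genes were Rgs17 (Pearson r = 0.995), Dlx2 (0.994) and Zic2 (0.992), and for Cdkn2a Fzd1 (0.879), Jam3 (0.868) and Cdkn2c (0.868). Nf2 was closest to Papss1 (0.972), Prpf19 (0.968) and Clstn1 (0.968). Setd2 was closest to Smc3 (0.967), Uba6 (0.961) and Npat (0.960), and Bap1 to Dmwd (0.867), Cops8 (0.865) and Git1 (0.841). For Trp53 they were Micall2 (0.811), Tcof1 (0.797) and Grwd1 (0.766), and for Lats2 Acsf2 (0.773), Pdlim2 (0.772) and Mknk2 (0.763).

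Centring each gene within the 4 groups removed the line and site and kept 1 of these 21 pairs, Cdkn2a with Fzd1 (r = 0.702). Setd2 was then closest to Bod1l (0.985), Taf1 (0.981) and Akap9 (0.980), of 11995, 8558 and 21350 exonic bases. Trp53 was closest to Eftud2 (0.870), Kif18b (0.865) and Plk1 (0.863), the last of them a mitotic kinase. Bap1 was closest to Fzr1 (0.894), Nf2 to Slc25a4 (0.868), Mtap to Lrrc8d (0.726) and Lats2 to Plin2 (0.752). Among the members themselves the centred correlations were highest between Bap1 and Trp53 (0.710) and between Bap1 and Nf2 (0.696), and lowest between Setd2 and Cdkn2a (-0.474). AB1 IPL mouse 4 had the highest Bap1, Nf2 and Trp53 of its group (112.7, 200.8 and 191.6 CPM). AB1 IPL mice 2 and 4 had the highest Cdkn2a (0.646 and 0.543 CPM) and the lowest Setd2 (66.0 and 42.0 CPM). The part of these mice in the correlations was not tested.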

How the data were processed

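Whole-tumor poly(A) RNA of 32 mice was sequenced as 50-base single reads. Per the submitters' processing notes and methods, the authors demultiplexed with bcl2fastq 1.8.4, aligned with HISAT2 2.0.4, counted with summarizeOverlaps and deposited raw read counts per gene, and whether counting used strand is not given in the sources used here. Symbols were matched through GENCODE M21 on GRCm38 (39495 of 39676 IDs), whose coordinates and sequences are printed. From the counts, edgeR 4.0.16 in R 4.3.3 (filterByExpr, TMM factors, quasi-likelihood test, Benjamini-Hochberg adjustment over all genes tested) was fitted to the 16 mice of each comparison, and to all 32 for the interaction. Standard errors follow from the fold change and its test statistic. DESeq2 1.42.0, limma-voom 3.58.1 with sample quality weights, other scalings, filters and thresholds, a replicate block, lane, marker scores and leaving out each mouse were alternatives. The fit without AB1 IPL mice 2 and 4 was added after seeing the data. Replicate numbers did not pair the mice.

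The members and gene lists were chosen with earlier results of these data known. Named genes are the members, up to 6 called genes per list by size of change with Mdm2, Cdkn1a, Cdk4, Rb1, Yap1, Prmt5, Mat2a and Ezh2, neighbors within 1 Mb of Cdkn2a with 10 counts in some mouse, and the 3 genes most alike each member. A gene so named in 1 comparison is given in others too. Pdpn and Wt1 were picked after their values were seen. The fits were tested on simulated counts with known changes. Library totals of 15432258 to 20649645 set the floor given for 3 counts, which covers counting error only.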

Additional observations from a re-analysis of the deposited data

Results flagged for a closer look

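In each of 28 groups of 8 tumors, 1 per member and group, the highest and lowest tumor was compared with its nearest neighbor by Dixon's test, which chance flags in about 1 of 20 groups. Bap1 at 112.7 CPM and Nf2 at 200.8 CPM stood apart as the highest values of their group, both in AB1 IPL mouse 4. Setd2 stood apart as the lowest value at 89.4 CPM in AE17 SC mouse 3 and at 85.4 CPM in AE17 IPL mouse 6. The contrast of long and short genes was lowest in the same mouse of each of these groups, and the part of RNA length or quality was not tested.

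The site effect on Nf2 differed between the lines, by an interaction of -0.33 on the log2 scale (edgeR adjusted p = 0.00401), with Nf2 higher in IPL tumors of AB1 by 0.21 and a value of -0.10 in AE17 that did not pass the test. With a covariate added the interaction was -0.35 ± 0.12 for the lane (edgeR adjusted p = 0.136), -0.33 ± 0.10 for the tissue scores (0.0740) and -0.24 ± 0.09 for the leukocyte score (0.0595), none of which was called.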

How the results depend on the processing

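With an adjusted p under 0.01 the genes called numbered 1903 between AB1 sites, 75 between AE17 sites and 1513 in the interaction, and 1 member was called between AB1 sites. Requiring also a size of 1 or more on the log2 scale left 988, 246, 2606, 3006 and 1347 genes (AB1 site, AE17 site, SC lines, IPL lines, interaction), with 0 members between AB1 sites and in the interaction and 1, Mtap, between SC lines. With the lane as a covariate the genes numbered 551, 116, 5268, 5008 and 117, and with tissue scores 443, 2, 4577, 3698 and 480. Either covariate left 0 members between AB1 sites and in the interaction, and the tissue scores left 1 between SC lines. The leukocyte score gave 354 genes between AE17 sites and 2139 genes with 0 members in the interaction. Between AE17 sites DESeq2 called 1774 genes, limma-voom, which here also weighted samples by quality, 3959 with 3 members, no filter 550 and a fit of all 32 mice 1324. In the interaction 2 members were called by DESeq2, limma-voom, DESeq2 size factors, total counts and a filter of 10 counts in every mouse.

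Among the members, directions that turned were those of differences that had not passed, except Cdkn2a between IPL lines, which was -0.13 with the lane. By limma-voom Mtap (-0.0045) and Setd2 (0.0016) turned between AB1 sites, Cdkn2a between AE17 sites (-0.046), Setd2 between IPL lines (-0.031), and Cdkn2a (-0.14) and Setd2 (-0.058) in the interaction. Without AB1 IPL mice 2 and 4 Mtap (-0.016) and Setd2 (0.052) turned between AB1 sites, and Setd2 between IPL lines (-0.090) and in the interaction (-0.12). With the leukocyte score Setd2 turned between AE17 sites (0.038) and SC lines (-0.087), Lats2 between SC lines (0.031) and Cdkn2a in the interaction (-0.44). The lane turned Trp53 between SC lines (0.14) and Cdkn2a in the interaction (-0.88), total counts turned Setd2 between SC lines (-0.039) and Bap1 between IPL lines (-0.038), no filter turned Bap1 between IPL lines (-0.0071), and tissue scores turned Setd2 there (-0.052). The cause of these shifts was not tested.

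Leaving out each mouse in turn gave 316 to 2066 genes and 0 to 1 members between AE17 sites, the highest without SC mouse 1 (2066) and SC mouse 3 (1546) and the lowest without IPL mouse 4 (316), and 1 to 2 members in the interaction. The ranges of values that turned were -0.075 to 0.036 for Setd2 between AE17 sites, -0.055 to 0.011 for Trp53 and -0.052 to 0.013 for Lats2 between SC lines, -0.018 to 0.068 for Bap1 between IPL lines and -0.092 to 0.26 for Cdkn2a in the interaction. The calls of Mtap and Nf2 between lines and of Nf2 and Lats2 between AB1 sites held in each of these fits.

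Equal replicate numbers did not mark mice that deviated together: pairs correlating above 0.1 numbered 0, 5, 2 and 1 of 8 in the AB1 site, AE17 site, SC and IPL comparisons. With the replicate block 1 member, Lats2, was called between AB1 sites, where Nf2 had an edgeR adjusted p of 0.0607, and 0, 3, 3 and 1 in the AE17 site, SC, IPL and interaction fits. Depth limited Cdkn2a, at 2 to 24 counts per mouse.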

Other observations

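Beyond 1 Mb of Cdkn2a on the same chromosome, 2 more genes of the listed neighborhood were lower in AE17 tumors. Elavl2, an RNA-binding protein gene of neurons, averaged 3.86 ± 0.856 CPM in AB1 SC and 0.216 ± 0.148 CPM in AE17 SC tumors, close to the floor, and passed the filter on low counts through AB1. It was called lower in SC (edgeR adjusted p = 3.8e-09) and in IPL tumors (-2.43 ± 0.63, edgeR adjusted p = 0.00324). Tusc1 was lower in AE17 by -1.11 ± 0.13 in SC (edgeR adjusted p = 1.1e-06) and by -1.25 ± 0.19 in IPL tumors (edgeR adjusted p = 2.2e-05). With the lane as a covariate Elavl2 was not called at either site (edgeR adjusted p = 0.208 and 0.120).

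Among other genes recurrently altered in mesothelioma, Kdm6a, a histone demethylase that acts against Polycomb, was higher in AE17 by 0.93 ± 0.13 in SC (edgeR adjusted p = 6.2e-06) and by 0.74 ± 0.19 in IPL tumors (edgeR adjusted p = 0.0028). Fbxw7, a ubiquitin ligase component, was higher by 0.26 ± 0.06 (edgeR adjusted p = 0.0014) and 0.47 ± 0.11 (edgeR adjusted p = 0.00102). The lane ended the IPL call of Kdm6a (edgeR adjusted p = 0.101) and the SC call of Fbxw7 (edgeR adjusted p = 0.0802). Smarcb1, of the SWI/SNF chromatin remodeler, was the 1 gene of 19 tested in that list called in the interaction of line and site, at -0.25 ± 0.08 (edgeR adjusted p = 0.0313). That is 5.26% of the list, against 20.5% of all genes tested in the interaction.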
